A study of Mus musculus with 2 samples.

Results

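The cells described here are CD8 T cells that carried transcripts of Gzmb (granzyme B) and none of Gzmk (granzyme K), taken from mouse MC38 tumours and called Gzmb+ Gzmk- cells below. A barcode was a member when it held at least 1000 unique molecular identifiers (UMIs, each standing for 1 captured transcript) with at most 10% of them mitochondrial, at least 1 UMI of Cd3d, Cd3e and Cd3g together, at least 1 of Cd8a and Cd8b1 together, at least 1 of Gzmb and 0 of Gzmk. It also had to hold under 3 UMIs of the myeloid genes Lyz2 and Csf1r together and under 3 of the mitosis genes Top2a, Birc5, Ube2c, Ccnb2 and Mki67 together. Of 4495 cells in all, 331 were members chosen by these UMI counts, 36 in the control library and 295 in the antiPD1 library.

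MC38 is a mouse colon carcinoma line, and both groups carried the same tumours. Cells were placed in the skin of C57BL/6J mice at 4 sites and grew for 7 days. Tumours of the antiPD1 group then received an antibody against the inhibitory receptor PD-1, and those of the control group a control that the labels do not describe further. The daily dose was 200 µg for each mouse, and both groups were harvested on day 10. Viable cells bearing the leukocyte antigen CD45 were sorted and profiled by 10x Genomics 3' sequencing, in 1 library per group. How many mice each library pooled is unknown here.

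A single library per group allowed no test between conditions, and no p-value is given. Intervals are 95% intervals, exact except for those of ratios of shares, which are log-normal. They cover counting error only, not differences between mice or between cells. Total depth was 5203415 UMIs in control and 13717817 in antiPD1. Members had a median of 3345 UMIs in control (range 1166 to 9137) and of 2712 in antiPD1 (1004 to 9729). The libraries shared 4 barcodes among their cells and 0 among members. Free RNA from broken cells was estimated at 2.34% of the members' UMIs in control and 2.76% in antiPD1.

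Cytotoxic CD8 T cells kill target cells by releasing granules that hold perforin and granzymes. Granzyme B cuts caspases and other substrates and starts apoptosis, whereas granzyme K is a related protease typical of memory-like and pre-dysfunctional T cells. Activated CD8 T cells also secrete interferon gamma (Ifng) and the chemokines Ccl3 and Ccl4, and long stimulation in tumours brings up inhibitory receptors such as PD-1 (Pdcd1) and Lag3.

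3 promoters are shown because Gzmb defined the cells, and Ifng and Ccl3 are among the cytokines that were past 2-fold in both libraries and share high-count cells. None is shown for Ccl4. They are the 250 bases before the RefSeq start on GRCm38.p6, written 5′ to 3′ on the gene's own strand, from chr14:56262335-56262584 (minus strand) for Gzmb, chr10:118440796-118441045 (plus strand) for Ifng and chr11:83649379-83649628 (minus strand) for Ccl3. Capitals mark an AP-1 motif (TGANTCA) in Gzmb and NFAT core motifs (GGAAA, or TTTCC where it lies on the opposite strand) in the other 2.
Gzmb: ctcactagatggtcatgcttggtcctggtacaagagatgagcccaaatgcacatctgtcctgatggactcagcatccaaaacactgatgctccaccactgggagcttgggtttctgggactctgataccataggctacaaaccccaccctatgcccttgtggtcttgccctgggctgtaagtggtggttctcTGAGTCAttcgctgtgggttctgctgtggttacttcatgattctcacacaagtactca
Ifng: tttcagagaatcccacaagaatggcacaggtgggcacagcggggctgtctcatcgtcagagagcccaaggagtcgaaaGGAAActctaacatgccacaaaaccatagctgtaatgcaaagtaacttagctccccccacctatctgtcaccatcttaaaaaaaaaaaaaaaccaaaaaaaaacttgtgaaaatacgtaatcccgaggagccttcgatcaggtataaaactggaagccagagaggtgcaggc
Ccl3: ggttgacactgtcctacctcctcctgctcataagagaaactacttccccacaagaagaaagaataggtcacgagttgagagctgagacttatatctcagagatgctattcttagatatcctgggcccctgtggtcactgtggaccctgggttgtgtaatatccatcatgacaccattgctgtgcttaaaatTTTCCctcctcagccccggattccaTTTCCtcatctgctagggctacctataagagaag
Both strands were searched in 32851 windows of this length. TGANTCA was in 6.75% of them and GGAAA in 55.6%, so the second is frequent, and TATAAA was in 12.4%. The Gzmb window held 1 TGANTCA, 58 bases before the start, and no GGAAA. The Ifng window held 1 GGAAA and 1 TATAAA, left in lower case, and the Ccl3 window 2 GGAAA. These are matches of letters, not measured binding sites.

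The cells were compared with the other CD8 T cells of the same library, which met every other part of the rule. These were cells with Gzmk (14 in control and 627 in antiPD1, of which 10 and 593 also carried Gzmb) and cells with neither granzyme (26 and 92). Gzmb+ Gzmk- cells made up 3.07% of control cells (2.16 to 4.22) and 8.88% of antiPD1 cells (7.94 to 9.90), a ratio of 2.90 (2.06 to 4.07). Among CD8 T cells the order was the reverse, with 47.4% of 76 cells in control (35.8 to 59.2) and 29.1% of 1014 in antiPD1 (26.3 to 32.0), a ratio of 0.614 (0.476 to 0.793). In control they were the most numerous of the 3 CD8 classes, and in antiPD1 the cells with Gzmk were, at 61.8% of CD8 T cells (58.8 to 64.8). These shares depend on capturing Gzmb and Gzmk. With every cell thinned to 1000 UMIs before the rule was applied, members were 37.1% of 62 CD8 T cells in control (25.2 to 50.3) and 45.8% of 900 in antiPD1 (42.5 to 49.1). The ratio then turned to 1.23 (0.886 to 1.72), so no order among CD8 T cells can be read. Cells with neither granzyme were then the largest class in control (46.8%), and members the largest in antiPD1. Among all cells the thinned shares were 1.96% and 12.4%, a ratio of 6.33 (4.18 to 9.59), in the same direction. The sort took all CD45+ cells, so shares describe the recovered immune cells and not their number in the tumour.

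**Figure D1:**
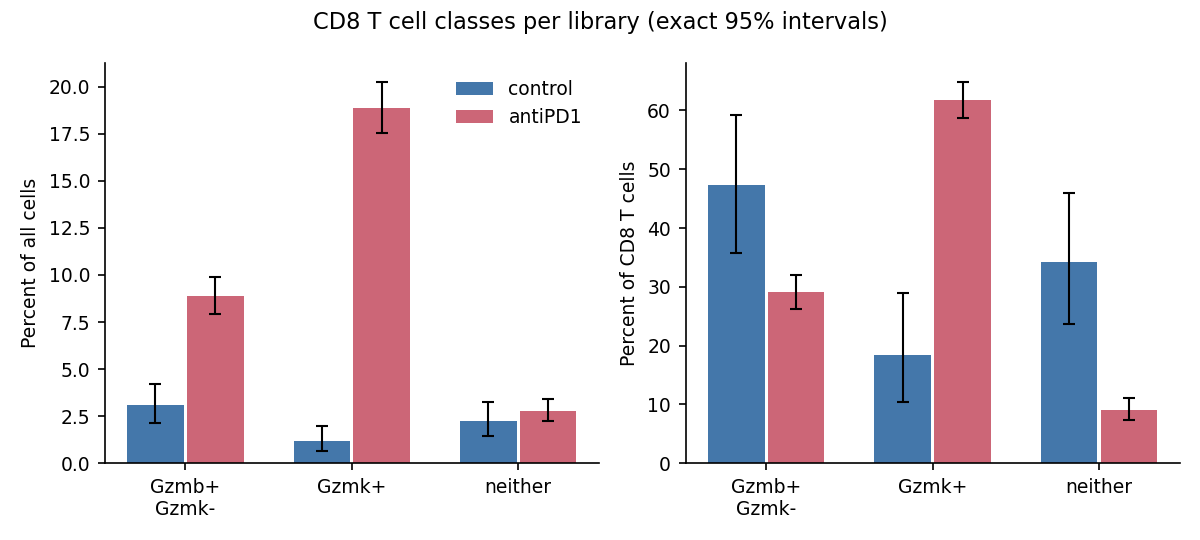
Share of all cells (left panel, percent) and of CD8 T cells (right panel, percent) in each CD8 class, control in blue and antiPD1 in red, with exact 95% binomial intervals as bars. Gzmb+ Gzmk- cells were 3.07% and 8.88% of all cells, and 47.4% and 29.1% of CD8 T cells, an order that turned with cells thinned to 1000 UMIs (37.1% and 45.8%).

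The Gzmb level chose the cells and is given as a description. Control members held a median of 8.5 Gzmb UMIs and a maximum of 192, antiPD1 members a median of 6 and a maximum of 98. Just inside the threshold, with exactly 1 Gzmb UMI, were 8 of 36 control and 48 of 295 antiPD1 members. At least 10 UMIs were found in 16 and 99 members. The nearest cells outside, antiPD1 cells with neither granzyme, had 883 CPM of Ifng (CPM is a gene's summed UMIs per 1000 UMIs of its class, times 1000), against 179 in antiPD1 members with 1 Gzmb UMI. A single cell held 231 of the 250 Ifng UMIs behind the first value, and without the highest cell of each group the levels were 68.0 and 152 CPM. Another 216 antiPD1 cells stood outside through a single Gzmk UMI, and had 667 CPM of Ifng and 2243 CPM of Ccl4, or 351 and 1184 CPM without the highest cell of each gene.

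The CD8 label was checked on the members. Both CD8 chains were found in 23 of 36 control and 210 of 295 antiPD1 members, and 10 and 53 members entered with a single CD8 UMI. Cd4, the co-receptor of helper T cells, or Foxp3, the transcription factor of regulatory T cells, was found in 9 control members (25%, 12.1 to 42.2) and 20 antiPD1 members (6.78%, 4.19 to 10.3). In the other CD8 T cells it was found in 2 of 40 and 9 of 719. Of the members with Cd4 or Foxp3, 8 of 9 in control and 17 of 20 in antiPD1 held exactly 1 CD8 UMI, against 2 of 27 and 36 of 275 members without them. These members went against the label, and results that move with these cells are given below with and without them.

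NK cell and myeloid markers were checked in the same way. The NK cell genes Ncr1 and Klrb1c were found in 2 of 36 and 12 of 295 members, and Ncr1, Klra8 and Klri2 were at 0 in control. Over the 10 NK markers the summed level was 753 and 645 CPM in members against 440 and 528 CPM in the other CD8 T cells. The macrophage list summed to 166 and 81.3 CPM in members against 84.9 and 97.4 CPM in the other CD8 T cells. Of its genes Ms4a7 was at 0 in members of both libraries, while C1qa was found in 4 of 36 control members against 1 of 40 other control CD8 T cells, and in 6 of 295 against 20 of 719 in antiPD1. In members the dendritic list summed to 203 and 182 CPM with Xcr1 and Zbtb46 at 0, and the B-cell, stromal and red-cell lists to at most 14.5 CPM. The neutrophil gene S100a8 was at 0 in control members and found in 8.81% of antiPD1 members, close to the 9.18% of other antiPD1 CD8 T cells.

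Across 1589 genes with at least 20 UMIs in each library, 17 were at least 2-fold higher in Gzmb+ Gzmk- cells than in other CD8 T cells in both libraries (1.07% of genes) and 2 at least 2-fold lower (0.126%). In control alone 109 were higher (6.86%) and 64 lower (4.03%), and in antiPD1 alone 25 (1.57%) and 2. The rule set Gzmb and Gzmk in these same cells, so the counts describe the classes and support nothing further. The 17 were cytokines (Ifng, Ccl3, Ccl4, Areg), receptors of the TNF receptor family (Tnfrsf9, Tnfrsf4), Lag3, Il2ra, the transcription regulators Ikzf2, Maf and Rbpj, the granzyme Gzmf, and Capg, Socs2, Izumo1r, Ass1 and Nrgn. The 2 lower genes were H2-Ab1 and H2-Eb1, chains of MHC class II. Without cells carrying Cd4 or Foxp3 the higher count was 10, with 9 of the 17 genes among them (1317 genes compared). With all cells thinned to 1000 UMIs the higher count was 3, but only 393 genes could then be compared. Against cells with Gzmk alone, 10 of the 17 were still 2-fold higher in both libraries (1097 genes compared). Against cells with neither granzyme, 6 of the 17 were (1326 genes compared). In these counts a gene of the 17 with too few UMIs to be compared was counted as not higher. The floor of 3 UMIs equals 72.9 CPM in the 14 control cells with Gzmk, which limits the ratios of sparse genes. Without cells carrying any of 7 genes of other cell types (Cd4, Foxp3, Ncr1, Klrb1c, C1qa, Cd79a and S100a8), 1148 genes could be compared, 7 of the 17 genes were still 2-fold higher in both libraries, and none of the 2 lower genes was still lower.

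**Figure D2:**
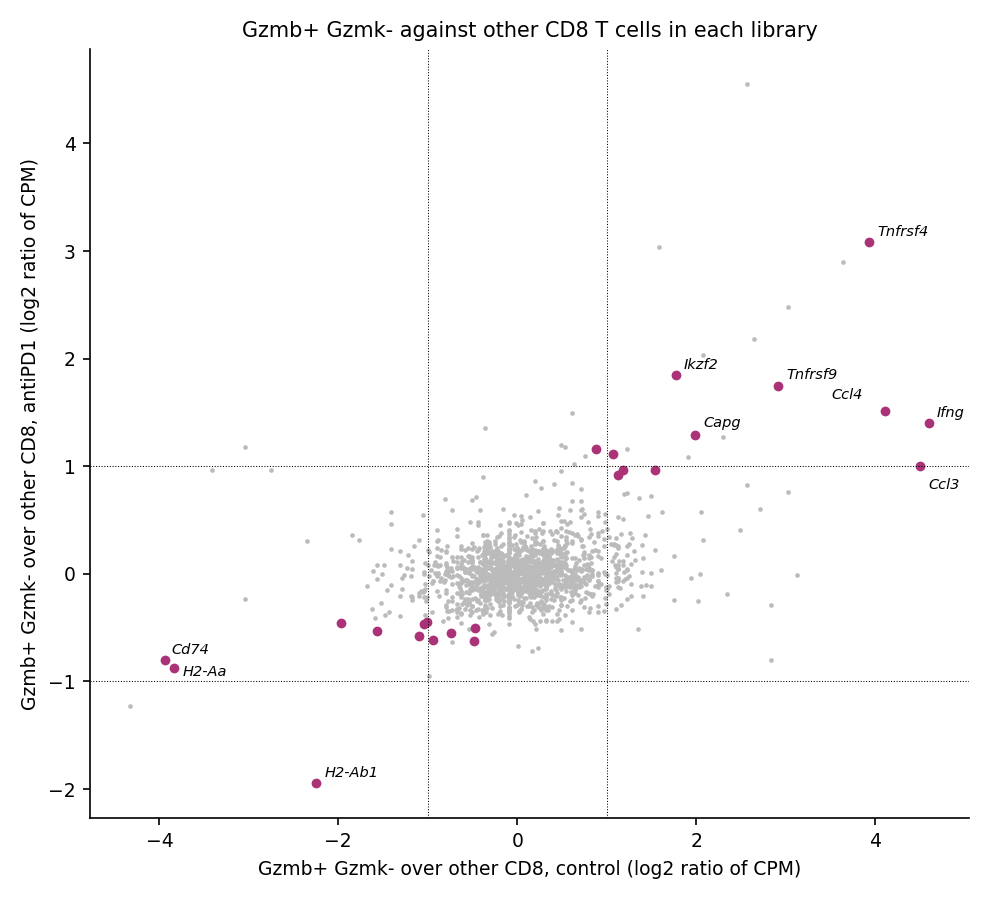
Log2 ratio of CPM, Gzmb+ Gzmk- cells over other CD8 T cells, in control (horizontal) and antiPD1 (vertical). Each grey point is 1 of 1589 genes, purple points are the 24 genes named by rule, 10 of them labelled, and dotted lines mark 2-fold; Tnfrsf4, Tnfrsf9, Ccl4 and Ifng lie to the upper right, and H2-Ab1 to the lower left.

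Among granule and killing genes, 3 of 11 measured genes were higher in Gzmb+ Gzmk- cells in both libraries and 2 lower, against 28.7% and 24.9% of all genes. The list's median log2 ratio was 0.47 in control and -0.01 in antiPD1, where all genes had medians of 0.03 and 0.0078 and 52.4% and 51.4% of genes were higher. The class compared made a difference. Against cells with Gzmk alone 5 of 11 genes were higher in antiPD1 (median -0.03) and 6 of 11 in control (0.03), where 50.7% and 49.2% of all genes were. Against cells with neither granzyme 10 of 10 were higher in antiPD1 (median 0.69) and 8 of 10 in control (0.59), where 60.6% and 57.1% of all genes were. Nkg7, a membrane protein of cytotoxic granules, stood at 2671 CPM in members and 2516 CPM in others of control, and at 4172 and 4349 CPM in antiPD1. Prf1, which encodes perforin, gave 2 UMIs in control members and 24 in antiPD1 members, 26.4 CPM against 26.1 CPM in the other antiPD1 CD8 T cells. Its difference was not detectable at this depth.

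Granzyme A went in opposite directions in the 2 libraries. Gzma, a tryptase of the same granules, stood at 550 CPM in control members and 77.2 CPM in other control CD8 T cells, but at 828 and 1440 CPM in antiPD1. Its log2 ratio was 2.83 (1.88 to 3.95) in control and -0.80 (-0.91 to -0.68) in antiPD1. In control only 4 members held Gzma. The highest held 40 of the 76 UMIs, and the member with most Ccl4 UMIs, described below, held 34. In antiPD1 Gzma was found in 101 of 295 members, and the cells with Gzmk carried most of it, at 1620 CPM. Gzmf, a granzyme of strongly stimulated lymphocytes, had 19 UMIs in 4 control members and 85 in 13 antiPD1 members, and 2 UMIs in other control CD8 T cells. It is therefore a gene of few cells. Serpinb6b and Serpinb9, inhibitors that shield killer cells from their own proteases, were at 347 and 159 CPM in control members and at 350 and 287 CPM in antiPD1 members. The antiPD1 log2 ratios to other CD8 T cells were 0.49 and 0.60.

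Transcripts of Ifng, Ccl4 and Ccl3 were higher in Gzmb+ Gzmk- cells than in the other CD8 T cells of the same library, but a few cells held most of them. Ifng, which encodes interferon gamma (chr10:118441046-118445892, plus strand), stood at 1310 CPM in control members (1126 to 1515) and 54.0 CPM in other control CD8 T cells, and at 1097 CPM (1030 to 1167) and 416 CPM in antiPD1. The log2 ratios were 4.60 and 1.40. Ccl4 (chr11:83662584-83664683, plus strand), a chemokine that attracts T cells and myeloid cells, stood at 7491 and 432 CPM in control and at 3915 and 1372 CPM in antiPD1, with log2 ratios of 4.12 and 1.51. Ccl3 (chr11:83647844-83649355, minus strand), its neighbour on the chromosome, stood at 2975 and 131 CPM in control and at 970 and 485 CPM in antiPD1, with log2 ratios of 4.50 and 1.0.

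In control, 1 member held 162 of 181 Ifng UMIs, 374 of 411 Ccl3 UMIs, 947 of 1035 Ccl4 UMIs and 69 of 76 UMIs of Xcl1, a chemokine for cross-presenting dendritic cells. This cell had 5687 UMIs, 192 of them Gzmb, 7 UMIs of Cd8a and Cd8b1 together, and none of Cd4 or Foxp3. Without it, the log2 ratios in control were 1.41 for Ifng, 1.09 for Ccl3, 0.62 for Ccl4 and -0.55 for Xcl1. The direction for Ifng, Ccl3 and Ccl4 was the same with and without this cell, most of their size in control lay in it, and the sign for Xcl1 turned. For Ccl3 the remaining direction rested on a second member, which held 30 UMIs. Without both members Ccl3 stood at 54.99 CPM, below the 131 CPM of other control CD8 T cells. In those other cells 1 cell held 11 of 17 Ccl3 UMIs. The counting intervals above do not cover this unevenness.

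In antiPD1 the UMIs were spread over more cells and were still uneven. Ifng was found in 96 of 295 members, Ccl4 in 166 and Ccl3 in 50, and the highest single cells held 380 of 998, 732 of 3563 and 216 of 883 UMIs. The 30 members with most UMIs of a gene held 92.0% of Ifng and 97.7% of Ccl3. At least 10 UMIs of Ifng were found in 7 members, of Ccl3 in 10 and of Ccl4 in 37, and 5 members passed that number for all 3 genes. High producers of the 3 cytokines were thus partly the same cells.

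**Figure D3:**
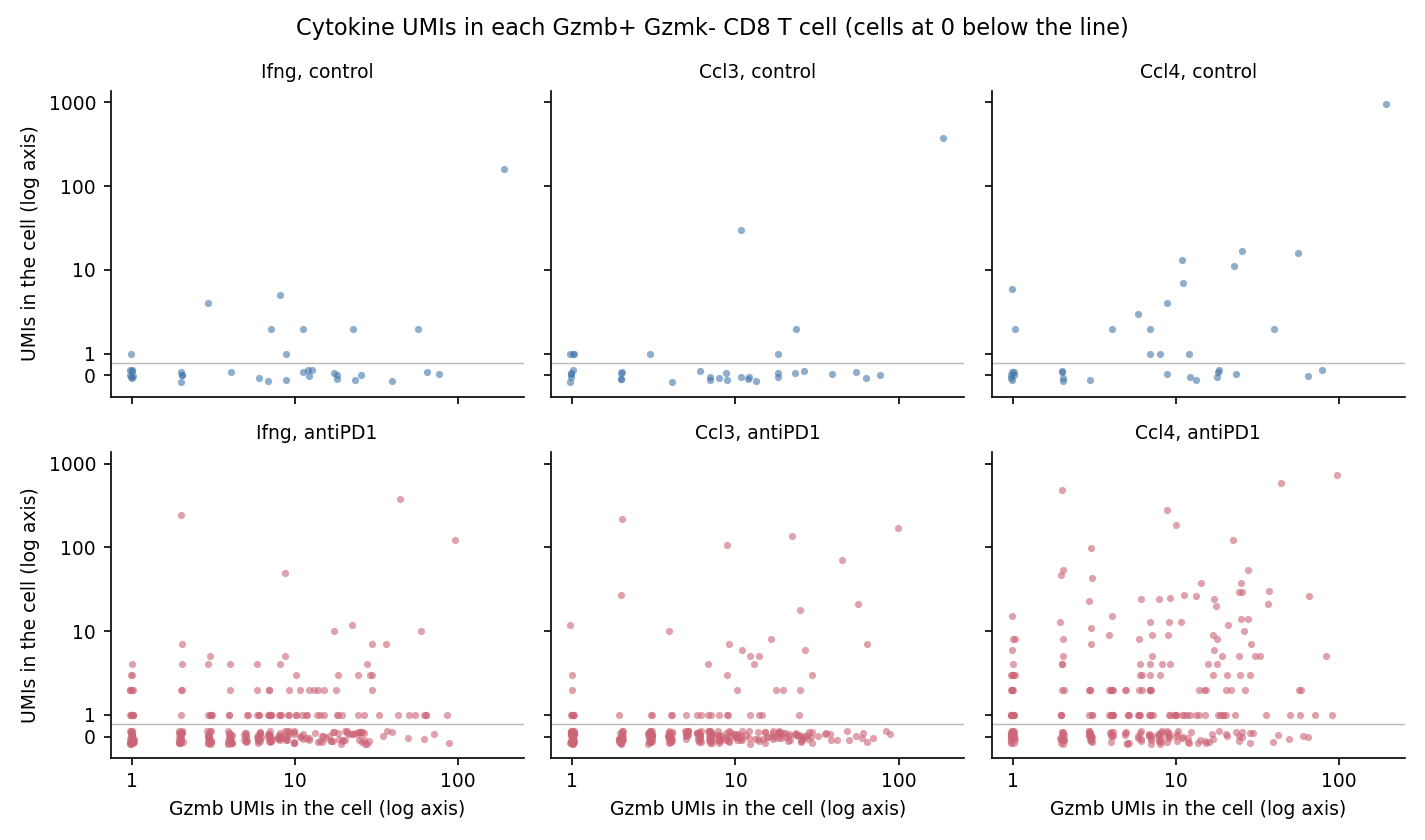
UMIs of Ifng, Ccl3 and Ccl4 (vertical, log axis, cells at 0 spread below the grey line) against Gzmb UMIs (horizontal, log axis) in each Gzmb+ Gzmk- cell, control above and antiPD1 below. The single control cell at the upper right of each upper panel holds 192 Gzmb and 947 Ccl4 UMIs.

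Shares of cells gave smaller differences than summed levels. With each cell thinned to 1000 UMIs, Ifng was found in 16.9% of antiPD1 members (12.8 to 21.7; 32.5% unthinned), 13.1% of cells with Gzmk (10.5 to 16.0) and 6.52% of cells with neither granzyme (2.43 to 13.7). The interval of members overlapped both others. Ccl3 was found in 10.5% of members (7.25 to 14.6), 3.03% of cells with Gzmk (1.83 to 4.69) and 3.26% of cells with neither (0.678 to 9.23). Ccl4 was found in 38.0%, 28.7% and 20.7%. In antiPD1 macrophage-type cells, used as a background for Ifng, Ifng was found in 0.350% after thinning. Unthinned, at a median of 4446 UMIs, it was found in 2.63%. These cells express Ccl3 and Ccl4 themselves (15.2% and 26.6%) and give no background for them, and free RNA was estimated to add 18.1 CPM of Ccl3 and 49.9 CPM of Ccl4 to antiPD1 members.

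Single cells with many cytokine transcripts were also found outside the class. In antiPD1, the 92 cells with neither granzyme stood at 883 CPM of Ifng, 1402 CPM of Ccl3 and 2971 CPM of Ccl4, and the highest cell of each gene held 231 of 250, 300 of 397 and 536 of 841 UMIs. Against these cells alone the log2 ratios in antiPD1 were 0.31 for Ifng, -0.53 for Ccl3 and 0.40 for Ccl4. Without the highest cell of each class they were 3.33, 1.08 and 1.52, so the sign for Ccl3 rested on 1 cell. Xcl1 stood at 76.9 CPM in antiPD1 members and 505 CPM in cells with neither granzyme, where 1 cell held 81 of 143 UMIs and the others stood at 222 CPM. Ccl5, a chemokine that memory and effector CD8 T cells store, was the most widely found, in 69.4% of control and 87.5% of antiPD1 members after thinning. It stood at 7961 CPM in members and 9106 CPM in other CD8 T cells of control, and at 10657 and 13121 CPM in antiPD1.

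Across the cytokine and chemokine list, 4 of 7 measured genes were higher in both libraries and 1 lower, against 28.7% and 24.9% of all genes. In antiPD1 alone 4 were higher and 3 lower, against 51.4% and 48.6%. The medians were 2.83 in control and 0.14 in antiPD1, and 0.48 in control without the cell described above. Mif, an inflammatory cytokine made by most cells, was close between classes, at 615 and 525 CPM in control and 531 and 482 CPM in antiPD1.

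**Figure D4:**
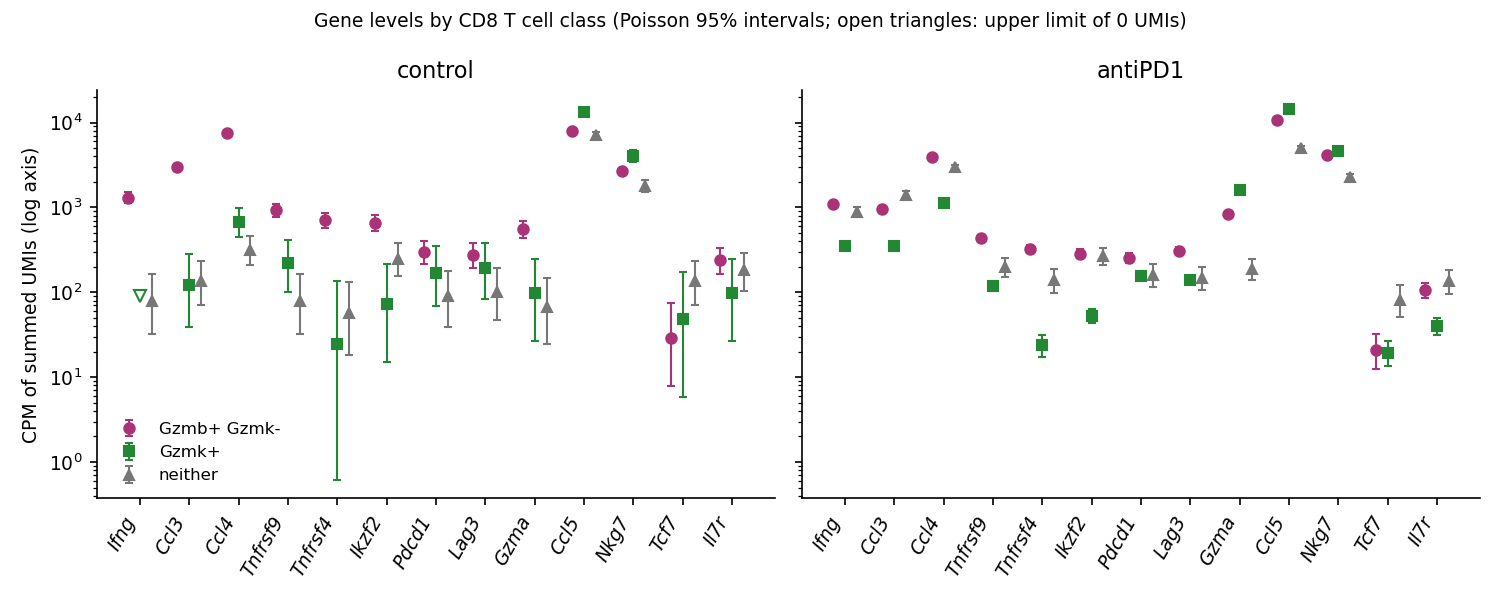
CPM of 13 genes (log axis) in Gzmb+ Gzmk- cells (circles), cells with Gzmk (squares) and cells with neither granzyme (triangles), control left and antiPD1 right, with Poisson 95% intervals; an open triangle is the upper limit where 0 UMIs were found. Tnfrsf4 and Tnfrsf9 were higher in Gzmb+ Gzmk- cells than in both other classes of each library, and Ccl5 and Nkg7 were highest in cells with Gzmk.

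Inhibitory receptors leaned towards Gzmb+ Gzmk- cells, with 5 of 6 measured genes higher in both libraries and none lower, against 28.7% of all genes higher in both. The list's medians were 1.21 in control and 0.62 in antiPD1. Against cells with neither granzyme in antiPD1, 4 of 6 were higher (median 0.23), where 60.6% of all genes were. Pdcd1, the target of the antibody (chr1:94038305-94052553, minus strand), stood at 297 CPM in control members (41 UMIs), 170 CPM in cells with Gzmk and 90.5 CPM in cells with neither, and at 255, 155 and 159 CPM in antiPD1. Its log2 ratios to other CD8 T cells were 1.36 (0.47 to 2.32) and 0.71 (0.46 to 0.95). After thinning, Pdcd1 was found in 15.9% of antiPD1 members (11.9 to 20.6), 13.6% of cells with Gzmk and 11.96% of cells with neither, so the shares overlapped. Thinned antiPD1 macrophage-type cells had Pdcd1 in 0 cells, and unthinned ones in 1.23%.

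Lag3, which binds MHC class II and dampens T cells (chr6:124904361-124911705, minus strand), stood at 275 CPM in control members and 131 CPM in others, and at 308 and 142 CPM in antiPD1. Its log2 ratios were 1.07 (0.21 to 1.99) and 1.12 (0.88 to 1.35), close in both libraries. Thinned shares in antiPD1 were 19.3% of members (15.0 to 24.3), 11.6% of cells with Gzmk (9.24 to 14.4) and 13.0% of cells with neither granzyme (6.93 to 21.7). The interval of members overlapped only the last. Cd160, another inhibitory receptor of activated CD8 T cells, stood at 195 and 69.5 CPM in control and 149 and 90.3 CPM in antiPD1, where cells with neither granzyme had 191 CPM. Ctla4, a competitor for CD28 ligands, stood at 615 and 224 CPM in control and 325 and 224 CPM in antiPD1, and without cells carrying Cd4 or Foxp3 its log2 ratios went from 1.46 and 0.54 to 0.90 and 0.33. Klrc1 and Klrd1, which pair as the NKG2A receptor, had antiPD1 log2 ratios of -0.03 and 0.29.

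Other receptors tied to late dysfunction were sparse. Havcr2, which encodes TIM-3, stood at 36.2 CPM in control members (5 UMIs) and 69.2 CPM in antiPD1 members (63 UMIs), against 41.2 CPM in other antiPD1 CD8 T cells. Tigit gave 0 UMIs in control members, where 3 UMIs would be 21.7 CPM, and 5 UMIs in antiPD1 members. Klrg1, a receptor of terminal effector cells, had 14 UMIs in control members and 1 in the other control CD8 T cells, and stood at 83.5 and 63.3 CPM in antiPD1.

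Of 12 measured effector and exhaustion transcription factors, 6 were higher in both libraries and 1 lower, against 28.7% and 24.9% of all genes, with medians of 0.33 in control and 0.46 in antiPD1. Tox, a driver of the exhausted state, was low in every class, with 2 UMIs in control members and 22 in antiPD1 members (24.2 CPM, against 22.1 CPM in others). Irf8 stood at 224 and 154 CPM in control and at 319 and 141 CPM in antiPD1, and Rbpj, the nuclear partner of Notch, was past 2-fold in both with 21 UMIs in control members. Nr4a1, an early target of antigen-receptor signalling, stood at 43.4 and 116 CPM in control and at 103 and 69.5 CPM in antiPD1, opposite directions of which the control one rested on 6 UMIs in members.

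Costimulators of the TNF receptor family had some of the highest ratios in both libraries. Tnfrsf9, which encodes the receptor 4-1BB (chr4:150914562-150946102, plus strand), stood at 934 CPM in control members and 123 CPM in others, and at 433 and 129 CPM in antiPD1. Tnfrsf4, which encodes OX40 (chr4:156013843-156016612, plus strand), stood at 709 and 46.3 CPM in control and at 323 and 38.1 CPM in antiPD1. Log2 ratios were 2.92 and 1.75 for Tnfrsf9 and 3.94 and 3.08 for Tnfrsf4. Tnfrsf18, which encodes GITR, stood at 811 and 278 CPM in control and 414 and 212 CPM in antiPD1. Over the list, 8 of 11 costimulatory receptors were higher in both libraries, against 28.7% of all genes, with medians of 0.82 and 0.37.

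These receptors are also abundant in regulatory T cells, and much of their signal lay in the members with Cd4 or Foxp3. The 9 such control members held 82 of 129 Tnfrsf9 UMIs and 64 of 98 Tnfrsf4 UMIs, and the 20 in antiPD1 held 97 of 394 and 155 of 294. Without cells carrying Cd4 or Foxp3 the log2 ratios were 1.73 and 1.51 for Tnfrsf9 and 3.68 and 2.56 for Tnfrsf4, so both stayed past 2-fold in both libraries. The control Tnfrsf4 ratio rested on 2 UMIs in the other CD8 T cells, raised to the floor of 3. Tnfrsf18 dropped to 0.55 and 0.58. Ikzf2, which encodes the transcription factor Helios (chr1:69531214-69687245, minus strand), went from 1.77 and 1.85 to 0.34 and 1.15, and Maf from 3.02 and 2.48 to 0.91 and 1.04. In antiPD1 Ikzf2 stood at 286 CPM in members, 265 CPM in cells with neither granzyme and 52.7 CPM in cells with Gzmk. The log2 ratio of members to cells with neither was 0.11 (-0.27 to 0.50), which allows either direction. Capg, an actin-capping protein, remained at 1.86 and 1.10. The regulatory T-cell genes Izumo1r and Il2ra also remained higher in the cells kept, at 1.59 and 2.29 and at 1.40 and 1.59. In control these rested on 8 and 7 UMIs in members. Whether the cells kept still included regulatory T cells was not tested. Ifng and Ccl3 were nearly absent from the members with Cd4 or Foxp3 (0 and 1 UMIs in control, 2 and 4 in antiPD1). Ccl4 had 19 UMIs in these control members, 17 of them in 1 cell. That made 644 CPM, against 449 CPM in other control CD8 T cells without Cd4 or Foxp3. Without cells carrying Cd4 or Foxp3 the ratios of Ifng, Ccl3 and Ccl4 were higher, at 4.87, 4.77 and 4.38 in control and 1.48, 1.07 and 1.59 in antiPD1. Pdcd1 likewise went to 1.84 and 0.79.

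Over the regulatory T-cell list, all 6 measured genes (Il2ra, Ctla4, Ikzf2, Tnfrsf4, Izumo1r and Capg) were higher in both libraries, against 28.7% of all genes. The summed level of its 7 genes was 3192 and 1456 CPM in members against 679 and 509 CPM in other CD8 T cells. Against cells with neither granzyme in antiPD1, all 6 were higher, where 60.6% of all genes were. Of these, 2 were past 2-fold, and the median was 0.54. Foxp3 itself gave 10 and 25 UMIs, and Izumo1r was found in 38.9% of control and 10.2% of antiPD1 members. Members with a weak CD8 signal and regulatory T-cell genes cannot be told apart from regulatory T cells with a stray CD8 UMI.

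Naive and memory genes leaned the other way, with 6 of 9 measured genes lower in both libraries, against 24.9% of all genes, and medians of -0.95 and -0.35. Tcf7, the transcription factor of naive and stem-like T cells, stood at 28.9 CPM in control members (4 UMIs) and 108 CPM in others, and at 20.9 and 27.0 CPM in antiPD1. The antiPD1 contrast lay within the cells with neither granzyme (81.2 CPM), since cells with Gzmk had 19.2 CPM. Bcl2, a survival factor, stood at 181 and 386 CPM in control and 130 and 193 CPM in antiPD1. Ly6c2, a surface protein of memory and effector T cells, stood at 999 and 1667 CPM in control and at 2658 and 3880 CPM in antiPD1. Il7r, the receptor for the survival cytokine IL-7, did not share this direction, at 239 and 154 CPM in control and 105 and 51.8 CPM in antiPD1, though in antiPD1 the cells with neither granzyme had 134 CPM.

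Of 13 homing and residency genes, 2 were higher and 5 lower in both libraries, against 28.7% and 24.9% of all genes, with medians of 0.08 and -0.12. Cxcr3, the receptor for interferon-induced chemokines, stood at 72.4 and 139 CPM in control and 172 and 264 CPM in antiPD1. Cxcr6, a receptor of tissue-resident T cells, stood at 326 and 401 CPM in control and 735 and 892 CPM in antiPD1. Rgs16, a regulator of G-protein signalling that marks recent stimulation, stood at 355 and 162 CPM in control and at 167 and 88.6 CPM in antiPD1. Cells with neither granzyme had more of it in antiPD1 than members, at 237 CPM, and cells with Gzmk had 67.3 CPM.

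At the low end, most UMIs of H2-Aa and Cd74 in cells with neither granzyme lay in single cells. H2-Aa had 143 UMIs in the 26 control cells with neither granzyme, 142 of them in 1 cell, and 186 in the 92 antiPD1 ones, 164 of them in 1 cell. For Cd74, the class II chaperone, these were 83 of 85 and 168 of 195 UMIs. H2-Ab1 and H2-Eb1, the 2 genes past 2-fold, had 9 and 5 UMIs in control members and 40 and 94 in other control CD8 T cells. Their UMIs are not given by cell here. With each gene's highest cell left out of every class, no gene was 2-fold lower in both libraries.

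Among the members themselves, some genes went with the amount of Gzmb and others did not. In antiPD1 members with 1, 2 to 9 and at least 10 Gzmb UMIs, Ifng stood at 179, 919 and 1639 CPM, and Ccl4 at 529, 3282 and 5894 CPM. Few cells carried these steps: the 2 highest cells held 245 and 50 of 370 Ifng UMIs in the middle group, and 380 and 123 of 603 in the top one. Without the 2 highest cells of each group Ifng stood at 135, 189 and 280 CPM and Ccl4 at 398, 1412 and 2376 CPM, in the same order with smaller steps. In control Ifng stood at 41.1, 293 and 2307 CPM, and at 0, 181 and 89.4 CPM without the highest cell of each group, so that order did not hold. Tnfrsf9 stood at 207, 243 and 726 CPM in the antiPD1 groups, and Tnfrsf4 at 78.7, 184 and 568 CPM. Of the 20 antiPD1 members with Cd4 or Foxp3, 18 had at least 10 Gzmb UMIs, and without them the levels were 207, 226 and 576 CPM for Tnfrsf9 and 78.7, 161 and 207 CPM for Tnfrsf4. Pdcd1 was level across the 3 groups of antiPD1 members, at 265, 256 and 250 CPM, and Lag3 was 372, 271 and 324 CPM. Without the 2 highest cells of each group Pdcd1 stood at 194, 218 and 205 CPM. Lag3 then stood at 174, 229 and 269 CPM, an order that rose with Gzmb. In the first group 2 cells had held 18 and 11 of its 52 Lag3 UMIs. Tcf7 ran downward, at 71.5, 17.4 and 5.44 CPM (10, 7 and 2 UMIs). Median depths of these groups were 2289, 2484 and 3279 UMIs, so cells with more Gzmb were also deeper, and the part of depth was not tested.

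The last comparison set members of the antiPD1 library against members of the control library. Of 1387 genes with at least 20 UMIs over both and 100 CPM in the higher one, 61 were at least 2-fold higher in antiPD1 (4.4%) and 38 at least 2-fold lower (2.74%). The split depended on scaling, with 46 higher and 52 lower when ratios were centred on their median of 0.09, and 88 and 136 when mitochondrial and ribosomal genes were left out of the totals. Ribosomal protein genes took 33.4% of UMIs in control members and 29.1% in antiPD1 members. Only 36 cells stood behind the control side.

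Interferon response genes were mostly higher in antiPD1 members, in 21 of 24 measured genes with a median log2 ratio of 0.57, where 57.8% of all genes were higher. Ifitm1, an interferon-induced membrane protein outside that list, led all named genes at 72.4 CPM in control (10 UMIs) and 599 CPM in antiPD1. Its log2 ratio was 3.05 (2.16 to 4.12). In the list, the interferon-gamma-induced GTPase Igtp stood at 94.1 and 307 CPM, Gbp2 at 57.9 and 160 CPM, and Ly6a, which encodes Sca-1, at 1267 and 2479 CPM. The immunoproteasome subunit gene Psmb9 stood at 297 and 505 CPM. Ifi27l2a ran against the list, at 3850 and 2702 CPM, and Isg15 stood at 362 and 331 CPM. Other CD8 T cells also had higher values in antiPD1 for Ifitm1, Igtp, Ly6a and Psmb9 (log2 ratios of 1.34, 1.94, 1.62 and 0.68). Cells with neither granzyme stood at 124 CPM of Ifitm1 in control and 714 CPM in antiPD1, so its rise was not particular to members. Ifi27l2a had opposite signs, with log2 ratios of -0.51 in members and 0.68 in other CD8 T cells. The list median was 0.89 without cells carrying Cd4 or Foxp3 and lay between 0.42 and 1.13 over 18 settings.

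Glycolysis and hypoxia genes were lower in antiPD1 members, in 12 of 12 measured genes with a median of -0.60, where 42.2% of all genes were lower. Gapdh stood at 2345 CPM in control and 1429 CPM in antiPD1, Tpi1 at 340 and 135 CPM, and Bnip3, a mitochondrial protein induced by low oxygen, at 130 and 20.9 CPM. This moved with the members carrying Cd4 or Foxp3, which were 25% of control and 6.78% of antiPD1 members, and the median without them was -0.07.

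**Figure D5:**
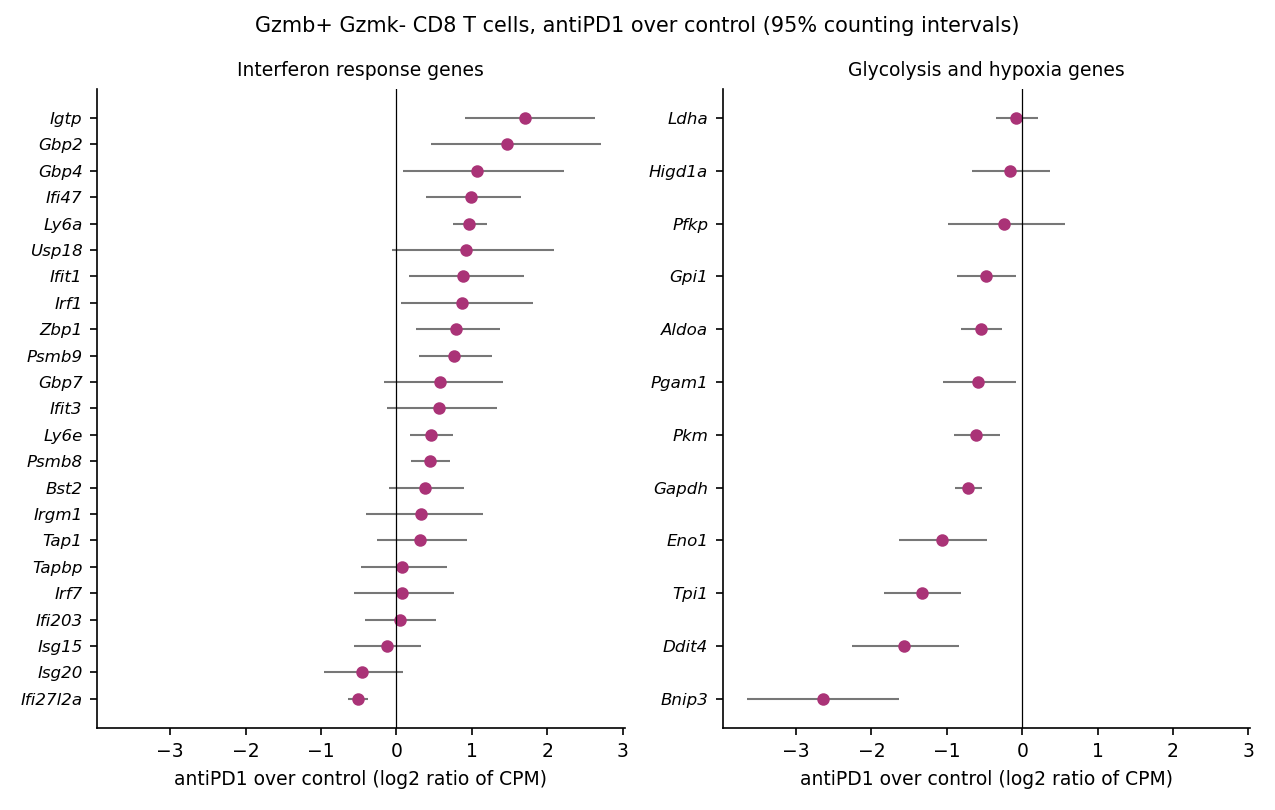
Log2 ratio of CPM, antiPD1 over control, in Gzmb+ Gzmk- cells for 23 of the 24 interferon response genes (left) and 12 glycolysis and hypoxia genes (right); points are ratios and lines 95% counting intervals. Igtp and Gbp2 stand highest on the left and Bnip3 lowest on the right.

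Effector genes differed between the libraries by gene and by cell. Nkg7 stood at 2671 CPM in control and 4172 CPM in antiPD1 members, and Ctsw, a cathepsin of killer cells, at 261 and 533 CPM. Over the granule list 8 of 11 genes were higher in antiPD1, against 57.8% of all genes, with a median of 0.44. Ccl3, Ccl4 and Ifng had log2 ratios of -1.62, -0.94 and -0.26 with all cells, and 1.80, 2.56 and 2.93 without the 1 control cell that held most of their UMIs. No direction can be read for these genes between the libraries. Xcl1 went from -2.84 to 0.54 in the same way.

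Pdcd1 and Lag3 were close between libraries, with log2 ratios of -0.22 (-0.70 to 0.30) and 0.16 (-0.33 to 0.69), intervals that allow a difference in either direction. Tnfrsf9, Tnfrsf4 and Ikzf2 were lower in antiPD1 members, with log2 ratios of -1.11 (-1.40 to -0.81), -1.13 (-1.47 to -0.79) and -1.21 (-1.55 to -0.84). Without cells carrying Cd4 or Foxp3 these were -0.30, -0.93 and -0.64, and Socs2, a feedback inhibitor of cytokine signalling, went from -1.46 to 0.10. Cxcr6 and Cxcr3 were higher in antiPD1 members, with log2 ratios of 1.17 and 1.25, as they were in other CD8 T cells (1.15 and 0.93). The remaining named genes higher in antiPD1 were Ifi27, Mrpl51, Hnrnpab, Srsf7, Gramd3, Mrpl12, Nhp2, Fkbp4, Mvb12a and Magoh. They had 4 to 9 UMIs in control members, and the ratios of Mrpl51, Hnrnpab, Mrpl12, Fkbp4 and Mvb12a changed sign after thinning.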

How the data were processed

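The deposited matrices hold raw UMI counts for 27998 genes and 737280 barcodes. According to the submitters' processing notes, the authors made these counts in Cell Ranger 2.1 on mm10. The members, gene lists and named genes were chosen with earlier results of these data known. Each class's UMIs were summed within a library, and a gene's sum was divided by that of all genes (CPM), with 1 library per group. Named genes were the 12 highest and 12 lowest log2 ratios with at least 100 CPM in the higher class (with the same sign in both libraries for members against other CD8 T cells, and at least 50 UMIs for antiPD1 against control), without mitochondrial, ribosomal, receptor-segment and unnamed genes and those of the rule, plus up to 8 genes from each of 13 lists and 16 fixed genes. Of 343 listed symbols, 9 were not matched. A few genes counted in the lists are not reported here by name. Ratios used a floor of 3 UMIs and exact conditional binomial intervals, levels exact Poisson, shares Clopper-Pearson and ratios of shares log-normal intervals. Free RNA was estimated from barcodes with 10 to 50 UMIs and 5 macrophage genes. No doublet caller was run, and cells with other types' transcripts were left out as an alternative. Ratio functions were tested on simulated data. Python 3.11.15, numpy 2.4.6, scipy 1.17.1 and pandas 2.3.3 were used. Promoters came from RefSeq (GRCm38.p6, 3 genes matched by symbol) and gene positions from GENCODE on GRCm38.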

Additional observations from a re-analysis of the deposited data

Results flagged for a closer look

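For some genes the difference between antiPD1 and control had opposite signs in Gzmb+ Gzmk- cells and in the other CD8 T cells, with counting intervals that left out 0 on both sides. The log2 ratios of antiPD1 over control in members and in other CD8 T cells were -0.26 and 2.94 for Ifng, -1.62 and 1.89 for Ccl3, -0.94 and 1.67 for Ccl4, -0.50 and 0.62 for Icos, and -0.51 and 0.68 for Ifi27l2a. The ratio of members over other CD8 T cells likewise had opposite signs for Gzma, 2.83 in control and -0.80 in antiPD1. Of the 76 Gzma UMIs in control members, 1 member held 40 and the member with most Ccl4 UMIs held 34. None of these differences was tested, since each group had 1 library. Without the control member with most Ccl4 UMIs, the member ratios of Ifng, Ccl3 and Ccl4 were 2.93, 1.80 and 2.56, positive as in the other CD8 T cells. Icos moved with the cells carrying Cd4 or Foxp3. Without them it stood at 460 CPM in control members and 508 CPM in antiPD1 members, so its sign in members turned.

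The list of glycolysis and hypoxia genes was higher in control members than in other control CD8 T cells for 12 of 12 genes (median 0.49), and in antiPD1 higher for 5 and lower for 7 (median -0.06), where 52.4% and 51.4% of all genes were higher. Without cells carrying Cd4 or Foxp3 the medians were 0.19 and -0.10. That difference was not tested either.

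Barcodes below the minimum depth also passed the rest of the rule. Among those with 500 to 999 UMIs, 1 of 67 in control and 23 of 446 in antiPD1 (5.16%, 3.30 to 7.64) did so. The 23 had a median of 782 UMIs and stood at 2018 CPM of Ccl4 and 57.7 CPM of Pdcd1.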

How the results depend on the processing

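No paired analysis was possible because each group had 1 library. Of 1575 gene ratios past 2-fold recomputed over all alternatives, 25 changed sign, and except where a value is given the cause was not tested. The alternatives requiring more CD3 and CD8 UMIs, leaving out cells with Cd4 or Foxp3, the control cell with most Ccl4 UMIs or the highest 1 or 2 cells of a gene were chosen after seeing the data. Only 36 control members limit every control value.

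With cells thinned to 1000 UMIs, members were 1.96% of control and 12.4% of antiPD1 cells (ratio 6.33), and 37.1% and 45.8% of CD8 T cells, where the ratio of antiPD1 over control turned from 0.614 to 1.23. Genes 2-fold higher and lower than other CD8 T cells in both libraries numbered 3 and 0 of the 393 compared. Between libraries, 185 genes were lower in antiPD1 members. Signs turned for Tnfrsf18 (-0.016), H2-Ab1 (0.35), Bcl2 (0.50), Med10 (0.35) and Tcf7 (0.025) against other CD8 T cells in control, for Il7r (-0.061) in antiPD1, and between libraries for Mrpl51 (-0.43), Hnrnpab (-0.46), Mrpl12 (-0.75), Fkbp4 (-0.50), Mvb12a (-0.075) and Nr4a1 (-1.05). With at least 3 Gzmb UMIs the shares were 2.04%, 6.65% and 23.5%, 1 gene was lower in both libraries and 80 were lower in antiPD1. Without cells carrying another type's UMI, the shares of cells were 1.96% and 6.99%, the counts 8 and 0, and 144 genes were higher and 61 lower in antiPD1, with H2-Aa at 0.41 in control. With at least 2 CD3 and 2 CD8 UMIs the shares were 2.13% and 7.23%, the counts 11 and 0, and 115 genes were higher in antiPD1, with H2-Aa at 0.23 and Ccr2 at -0.032 in control. Without cells carrying Cd4 or Foxp3 the counts were 10 higher in both libraries and 105 higher in antiPD1, with Socs2 at 0.10.

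Without the deepest 5% of cells 0 genes were lower in both libraries, as against cells with Gzmk alone. Against cells with neither granzyme 7 were, and Ccl3 (-0.53) and Il7r (-0.35) in antiPD1 and Med10 (0.53) in control turned sign. Without each gene's highest cell 0 were lower in both, 112 higher and 15 lower in antiPD1, with H2-Aa at 0.54 in control and Xcl1 at 0.065 and Ccl3 at 1.40 between libraries. Without the control cell with most Ccl4 UMIs, Xcl1 stood at -0.55 against other CD8 T cells and at 0.54 between libraries, and Ccl3 at 1.80. A gene minimum of 50 UMIs gave 8 higher and 1 lower in both libraries (625 genes compared), and no minimum 34 and 4 (4482 genes compared). Totals without mitochondrial and ribosomal genes gave 136 genes lower in antiPD1, and means of per-cell CPM 65.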

Other observations

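Several gene groups not described above showed no common direction in Gzmb+ Gzmk- cells. Of 8 measured antigen-receptor response genes, 4 were higher and 2 lower than in other CD8 T cells in both libraries, against 28.7% and 24.9% of all genes, with median log2 ratios of 0.21 in control and 0.26 in antiPD1. Gadd45b, a stress and activation gene, stood at 261 and 84.9 CPM in control and at 174 and 117 CPM in antiPD1, and the kinase gene Pim1 at 311 and 139 CPM and at 357 and 276 CPM. The antiPD1 cells with neither granzyme had 215 CPM of Gadd45b and 392 CPM of Pim1. Cd69, an early activation marker that also retains T cells in tissue, went slightly the other way, at 188 and 216 CPM and at 308 and 341 CPM. Of 7 cytokine receptor genes, 2 were higher and 2 lower in both libraries, and Il2rb, a chain of the IL-2 receptor, stood at 261 and 177 CPM and at 237 and 172 CPM.

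Heat-shock and immediate early genes were lower in control members than in other control CD8 T cells for 8 of 9 genes (median -0.37), where 47.6% of all genes were lower, and higher in antiPD1 for 6 of 9 (median 0.12), where 51.4% of all genes were higher. With cells thinned to 1000 UMIs the control median was 0.08. Replication genes outside the rule had medians of -0.09 and 0.12 over 6 genes, and were higher in antiPD1 than in control members for 4 of 6, where 57.8% of all genes were higher, with a median of 0.54.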
